A study of Mus musculus with 28 samples.

Results

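The Nkx2 and Nkx6 genes encode homeodomain transcription factors of the NK family, and 10 of them were read here: *Nkx2-1*, *Nkx2-2*, *Nkx2-3*, *Nkx2-4*, *Nkx2-5*, *Nkx2-6*, *Nkx2-9*, *Nkx6-1*, *Nkx6-2* and *Nkx6-3*. They were taken by name from the 21911 protein-coding genes of chromosomes 1 to 19, X and Y in GENCODE vM21, and all 10 were found. Histone marks were profiled by CUT&RUN (CnR, in which an antibody-tethered nuclease releases the marked chromatin for sequencing) in nuclei purified by INTACT, an affinity capture of tagged nuclei, from the striatum of adult mice. A2a nuclei came from Sun1-sfGFP;A2a-cre mice and D1 nuclei from Sun1-sfGFP;Drd1-cre mice, all C57BL/6J, of both sexes and without treatment. Both groups carried the R26-CAG-LSL-Sun1-sfGFP allele, so the nuclei are those in which the A2a-cre or Drd1-cre driver had been active at any time in the life of the cell. Of the 28 samples, 8 stand behind the 4 lists read here, which are H3K4me3 peaks (Abcam antibody) and H3K27me3 islands (Active Motif antibody) of A2a and of D1 nuclei, each pooled by the authors from 2 replicates. No value therefore has a replicate error, no difference between A2a and D1 was tested, and intervals are exact Poisson intervals at the 95% level that cover counting error only.

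H3K4me3 marks the start sites of active and poised genes, and H3K27me3 is laid down by Polycomb repressive complex 2 over silent developmental regulators. The NK genes are textbook members of that class. In the embryo they divide the ventral neural tube and forebrain into progenitor domains under sonic hedgehog, and outside the nervous system they act in heart, gut, spleen, thyroid and pancreas. *Nkx2-1* specifies the medial ganglionic eminence, the source of striatal interneurons, whereas the projection neurons profiled here (medium spiny neurons, MSNs) arise in the lateral ganglionic eminence. Promoters that carry both marks are commonly called bivalent.

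The label of the D1 H3K27me3 samples needed a decision before any comparison, since A2a is written in their source name and D1 in their title and their cell type. Here they were read as D1. Marker genes bore on this directly. Over the genes *Adora2a*, *Drd2*, *Penk* and *Gpr6* of A2a neurons, islands covered a median of 4.55% of the gene and 50 kb on either side in the A2a list and 69.8% in the D1 list, and over *Drd1*, *Pdyn*, *Tac1* and *Isl1* of D1 neurons 64.4% and 6.75%. The 6 markers of all projection neurons had no promoter island in either list, and 5 of them had a promoter peak in both. All 6 interneuron markers had an island and no peak in both lists. The lists differ in size, with 60191 islands and 22551 peaks for A2a and 45760 islands and 20080 peaks for D1, and they do not hold the depth of the libraries.

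Start regions are shown for 5 of the genes, from RefSeq (build GRCm38.p6), from 250 bases upstream to 50 bases downstream of the RefSeq start, read 5′ to 3′ along the gene with every CG dinucleotide in capitals. *Nkx6-2* (chr7:139582748-139583047, minus strand) is shown because it was the only gene of the 10 with a promoter peak in both lists. *Nkx2-2* (chr2:147186353-147186652, minus strand) and *Nkx2-9* (chr12:56613235-56613534, minus strand) had a promoter peak in A2a only. The marks were read at the GENCODE 5′ end, and the RefSeq start of *Nkx2-2* lies 7841 bp inside the gene from there, so the stretch shown for it is that of an inner start and lies outside the promoter window and its A2a peak. *Nkx6-1* (chr5:101664662-101664961, minus strand) and *Nkx2-1* (chr12:56536859-56537158, minus strand) had islands and no peak. H3K27me3 islands of both lists overlapped all 5 stretches, and no H3K4me3 peak overlapped these 300 bases.
Nkx6-2: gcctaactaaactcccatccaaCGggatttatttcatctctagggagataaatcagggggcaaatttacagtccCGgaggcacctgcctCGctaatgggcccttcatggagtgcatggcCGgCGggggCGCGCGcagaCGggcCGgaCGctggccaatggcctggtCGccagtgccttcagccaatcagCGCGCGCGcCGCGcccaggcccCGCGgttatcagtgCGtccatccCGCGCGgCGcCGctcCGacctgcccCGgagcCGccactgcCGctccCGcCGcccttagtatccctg
Nkx2-2: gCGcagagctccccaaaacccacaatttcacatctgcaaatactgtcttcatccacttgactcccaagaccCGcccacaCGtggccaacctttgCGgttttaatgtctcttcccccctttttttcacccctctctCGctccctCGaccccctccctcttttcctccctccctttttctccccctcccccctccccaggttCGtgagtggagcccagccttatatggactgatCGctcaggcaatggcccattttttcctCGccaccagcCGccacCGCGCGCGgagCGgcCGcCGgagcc
Nkx2-9: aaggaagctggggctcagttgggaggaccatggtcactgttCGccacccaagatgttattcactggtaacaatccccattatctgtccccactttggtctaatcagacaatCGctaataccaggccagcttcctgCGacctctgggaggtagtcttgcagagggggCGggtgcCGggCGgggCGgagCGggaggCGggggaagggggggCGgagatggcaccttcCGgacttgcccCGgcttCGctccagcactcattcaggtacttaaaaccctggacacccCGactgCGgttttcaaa
Nkx6-1: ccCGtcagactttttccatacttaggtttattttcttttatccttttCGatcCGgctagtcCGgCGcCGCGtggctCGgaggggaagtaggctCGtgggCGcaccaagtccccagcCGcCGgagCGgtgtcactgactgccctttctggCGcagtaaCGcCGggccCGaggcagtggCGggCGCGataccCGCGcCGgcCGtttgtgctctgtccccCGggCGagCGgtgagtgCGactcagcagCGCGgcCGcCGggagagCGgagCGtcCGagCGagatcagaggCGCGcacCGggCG
Nkx2-1: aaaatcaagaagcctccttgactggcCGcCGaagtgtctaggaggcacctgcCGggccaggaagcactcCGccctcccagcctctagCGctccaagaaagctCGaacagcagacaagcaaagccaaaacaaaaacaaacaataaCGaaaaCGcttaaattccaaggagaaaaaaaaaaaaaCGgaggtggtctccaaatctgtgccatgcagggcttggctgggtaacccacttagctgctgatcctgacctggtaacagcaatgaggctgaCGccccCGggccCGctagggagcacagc
The stretches of *Nkx6-1* and *Nkx6-2* held 40 and 32 CG, those of *Nkx2-2*, *Nkx2-9* and *Nkx2-1* 17, 15 and 12. Over the 8 genes that had an entry in the RefSeq table the median was 16, against a median of 7 and a 90th percentile of 31 over all 32851 promoters of that table. *Nkx2-6* and *Nkx6-3* had no entry. The RefSeq start of *Nkx2-5*, whose stretch is not shown, also lies inside its gene, 3444 bp from the GENCODE 5′ end. It is outside the promoter window in which the marks of *Nkx2-5* were read. The nearest A2a peak began 13 bases downstream of the *Nkx6-2* stretch, and the nearest D1 peak 60 bases away. For *Nkx2-2* the distances were 293 and 438 bases, to peaks inside the gene. The motif CAAGTG, the core of the sequence bound by Nkx2 proteins and a form of the E-box CANNTG, was searched on both strands and stood in 1 of the 8 stretches, that of *Nkx2-2*, against 13.6% of all promoters. TTAATTA, a homeodomain core that Nkx6 proteins bind, stood in none of the 8 and in 3.07% of all, and TATAAA in none and in 13.6%, also on both strands.

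H3K27me3 was present over nearly the whole family in both cell types. In A2a nuclei all 10 genes had an island at the promoter (2 kb upstream to 1 kb downstream of the annotated 5′ end, an overlap of at least 1 bp), where 21.7% of all protein-coding genes had one. In D1 nuclei 9 of the 10 had one, against 15.3% of all genes. The exception in D1 was *Nkx6-3*. Islands covered the whole 3001 bp window at all 10 genes in A2a and at 9 in D1, against 10.2% and 6.02% of all genes. *Nkx6-3* was thus the only one of the 10 with a promoter island in A2a and none in D1, a state held by 7.39% of genes, and none had the reverse, which 1% of genes had.

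**Figure D1:**
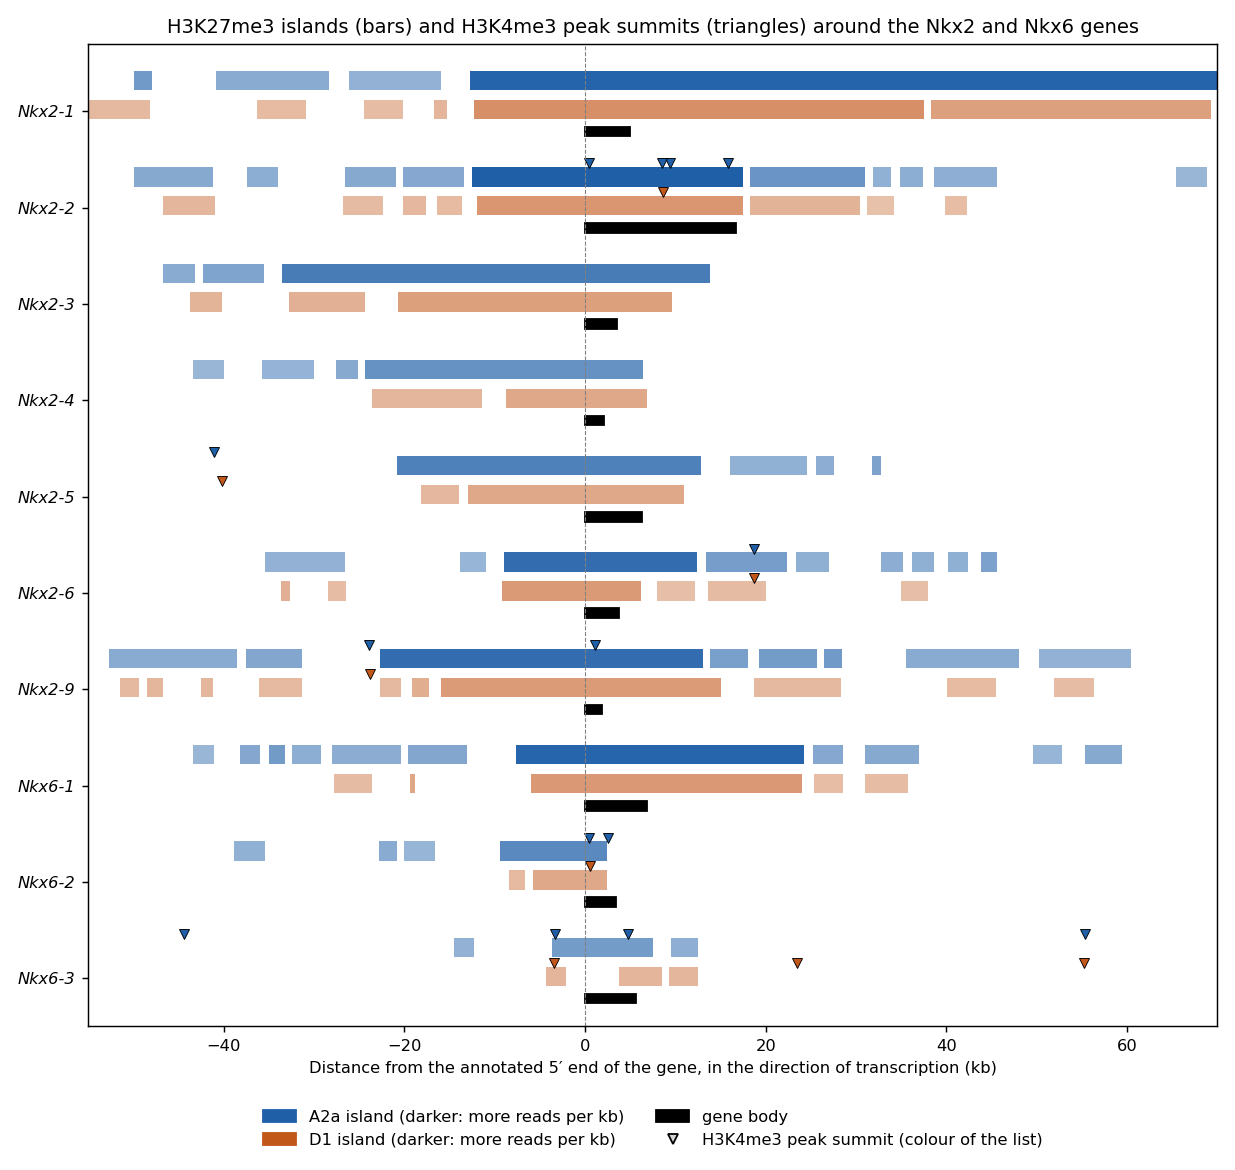
Each row is a gene, and the x axis gives the distance from its annotated 5′ end in kb along the direction of transcription. Blue (A2a) and orange (D1) bars are H3K27me3 islands of the pooled lists that overlap the gene or the 50 kb around it, darker with more reads per kb, triangles are H3K4me3 peak summits of the list of that colour, and black bars are gene bodies. Bars are drawn up to the edges of the panel, which the 105.2 kb A2a island of *Nkx2-1* passes on the right, and *Nkx6-3* is the only row with no D1 bar at the 5′ end.

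In the forebrain, *Nkx2-1* and its close relative *Nkx2-4* act in the ventral domains from which hypothalamus and, for *Nkx2-1*, interneurons develop. *Nkx2-1* (chr12:56531958-56536908, minus strand) carried the longest promoter islands of the 10 genes. The A2a island ran for 105.2 kb, from 12.7 kb upstream to 92.5 kb downstream of the 5′ end, and held 18215 reads (95% interval 17951 to 18481), or 173 reads per kb. It was number 5 of the 60191 A2a islands by reads. In D1 the promoter island ran for 49.8 kb with 4981 reads, 100.02 reads per kb, number 26 of 45760, and a second D1 island of 31.0 kb with 2304 reads began 38.3 kb downstream. The stretch of the A2a island held 3 separate islands in D1, which together covered 103 kb with 9000 reads, so the marked length of the whole domain was 1.02 times as long in A2a and the lists differed in where the islands were split. *Nkx2-4* (chr2:147083316-147085445, minus strand) lay in islands of 30.8 kb with 3226 reads in A2a and 15.6 kb with 983 reads in D1, or 105 and 63.0 reads per kb. A further D1 island, of 12.2 kb with 520 reads, lay within the stretch of that A2a island. Together the D1 islands covered 27.8 kb with 1503 reads. Neither gene had an H3K4me3 peak at the promoter, in the body or within 50 kb in either list.

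*Nkx2-2*, *Nkx2-9*, *Nkx6-1* and *Nkx6-2* pattern the ventral spinal cord and hindbrain, where *Nkx2-2* and *Nkx2-9* mark the domain next to the floor plate and the Nkx6 genes the progenitors of motor neurons. *Nkx2-2* and *Nkx6-2* are also known from oligodendrocytes, and *Nkx2-2* and *Nkx6-1* from pancreatic beta cells. At *Nkx2-2* (chr2:147177546-147194243, minus strand) islands of 30 kb with 5386 reads in A2a and 29.4 kb with 2626 reads in D1 covered the whole gene, at 180 and 89.3 reads per kb. *Nkx2-9* (chr12:56611389-56613284, minus strand) lay in islands of 35.8 kb with 5716 reads and 31.0 kb with 2567 reads, at 160 and 82.8 reads per kb. *Nkx6-1* (chr5:101658139-101664996, minus strand) lay in islands of 31.8 kb with 5491 reads and 30 kb with 2567 reads, at 173 and 85.6 reads per kb. All 3 genes lay wholly inside their island in both lists. The islands of *Nkx2-2* ended 17.4 kb downstream of the 5′ end in both lists, and those of *Nkx6-1* 24.2 kb in A2a and 24 kb in D1. *Nkx6-2* (chr7:139579376-139582797, minus strand) had much shorter ones, of 11.8 kb with 1376 reads in A2a and 8.2 kb with 522 reads in D1, at 117 and 63.7 reads per kb. Its islands ended 2.40 kb downstream of the 5′ end in both lists, short of the gene's 3′ end, so that *Nkx6-2* was the only gene of the 10 whose body the A2a promoter island did not span.

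*Nkx2-3*, *Nkx2-5* and *Nkx2-6* are known for roles outside the brain, *Nkx2-3* in spleen and gut, *Nkx2-5* in the heart and *Nkx2-6* in the pharynx and heart. *Nkx2-3* (chr19:43612325-43615892, plus strand) lay in an A2a island of 47.4 kb with 6500 reads and a D1 island of 30.4 kb with 2289 reads, at 137 and 75.3 reads per kb. *Nkx2-5* (chr17:26838664-26845009, minus strand) lay in islands of 33.6 kb with 4347 reads and 24 kb with 1536 reads, at 129 and 64.0 reads per kb. *Nkx2-6* (chr14:69171802-69175518, plus strand) lay in islands of 21.4 kb with 3400 reads and 15.4 kb with 1288 reads, at 159 and 83.6 reads per kb. All 3 genes lay wholly inside their island in both lists, and their island lengths fell within the range of those of the neural genes. In D1 a further island lay within each of these A2a stretches. Counted with it, D1 islands covered 38.8 kb with 2716 reads at *Nkx2-3*, 28.2 kb with 1711 at *Nkx2-5* and 19.6 kb with 1419 at *Nkx2-6*.

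*Nkx6-3* (chr8:23153269-23158948, plus strand), a gene of the stomach and hindbrain, was the least marked of the 10. Its A2a island was 11.2 kb long with 990 reads (95% interval 929 to 1054), or 88.4 reads per kb, and it spanned the gene. In D1 an island of 2.2 kb with 97 reads ended 69 bp short of the promoter window, and another of 4.8 kb with 216 reads began 3.73 kb inside the gene, over its 3′ end. The gene was thus flanked and partly covered by D1 islands, and the missing call at its promoter rests on those 69 bp and on the islands that SICER drew.

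Reads per kb, which set genes of different island length on the same scale, put the genes in a similar order in both lists. In A2a, *Nkx2-2* (180 reads per kb, 95% interval 174.8 to 184.4), *Nkx2-1* (173, 171 to 176) and *Nkx6-1* (173, 168 to 177) stood highest with overlapping intervals. *Nkx2-9* and *Nkx2-6* followed at 160 and 159, also with overlapping intervals, and *Nkx2-3*, *Nkx2-5*, *Nkx6-2*, *Nkx2-4* and *Nkx6-3* came in steps whose intervals did not overlap their neighbours'. In D1, *Nkx2-1* stood alone at 100.02 (97.3 to 103). *Nkx2-2*, *Nkx6-1*, *Nkx2-6* and *Nkx2-9* lay between 89.3 and 82.8 with each interval overlapping the next, *Nkx2-3* stood apart at 75.3, and *Nkx2-5*, *Nkx6-2* and *Nkx2-4* could not be told apart at 64.0, 63.7 and 63.0. This D1 order is that of the island at the promoter and depended on where islands were split. Over all D1 islands in the region merged from both lists at the promoter, *Nkx2-1* held 87.4 reads per kb, below *Nkx2-2* at 89.3. On that measure *Nkx2-5*, *Nkx6-2* and *Nkx2-4* held 60.7, 59 and 54.1. By reads per kb the A2a islands lay between percentiles 92.7 and 99.9 of their list and the D1 islands between 97.3 and 99.9, where the list medians were 62.5 and 37.2 reads per kb. Their lengths, with a median of 31.3 kb in A2a and 29.4 kb in D1, compare with list medians of 3.60 and 3 kb.

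The read counts of the lists are not normalized between A2a and D1, so the density in each region was compared with that of all 28726 regions that held islands of both lists. Over those regions the median ratio of A2a to D1 reads per kb was 1.79. In the regions at the 10 genes, each merged from the islands of both lists and overlapping the promoter, the ratio was 1.93 to 2.19, which relative to that median was 1.08 (*Nkx2-9*, 95% interval 1.03 to 1.13) to 1.23 (*Nkx2-6*, 1.15 to 1.30), with a median of 1.11. No gene passed 2-fold of the median in either direction, a threshold that 0.0522% of shared regions passed with more density in A2a and 0.16% with more in D1. All 10 values lay above 1 and 9 of the 10 intervals did, the exception being *Nkx6-3* (0.971 to 1.26), whose D1 reads come from the 2 islands on either side of its promoter window, but the middle 90% of shared regions spanned 0.724 to 1.33 and held all 10. The direction also depends on the scale. On total reads in place of reads per kb, 5 genes lay above and 5 below the median of shared regions, with a median over the 10 of 0.974, and after joining islands within 5 kb of each other 2 of the 10 lay below. The regions of the 10 genes were 1.02 to 1.60 times as long in A2a islands as in D1 islands.

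**Figure D2:**
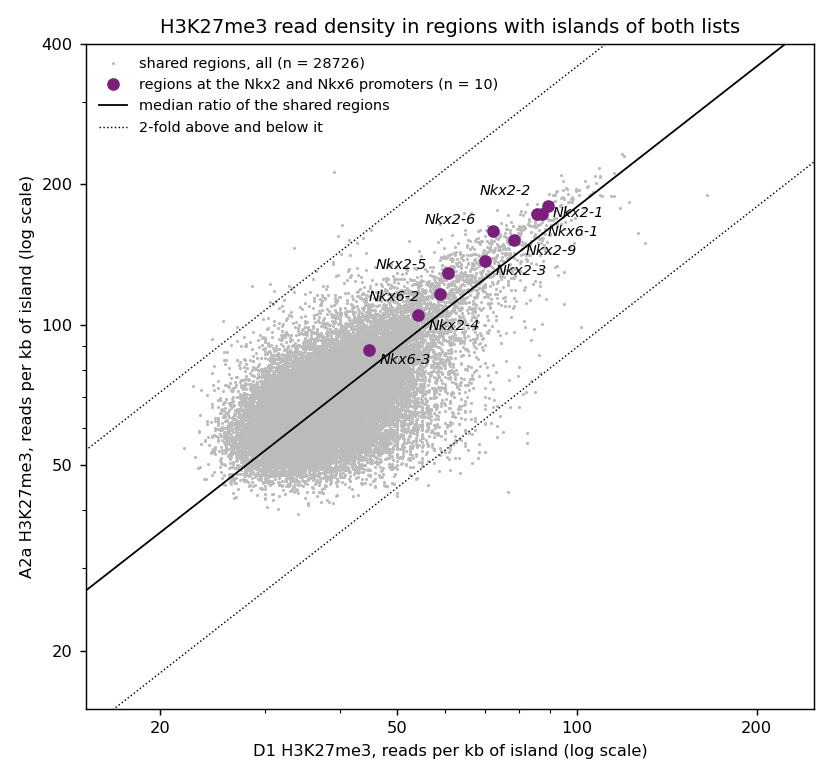
Reads per kb of H3K27me3 island in D1 (x axis, log scale) against A2a (y axis, log scale), 1 grey point for each of the 28726 regions with islands of both lists and a purple point for the merged region that overlaps each of the 10 promoters (at *Nkx6-3* the D1 islands of that region lie on either side of the promoter). The solid line is the median ratio of 1.79 and the dotted lines lie 2-fold above and below it, and all 10 purple points sit slightly above the solid line and far inside the dotted ones.

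H3K27me3 extended well beyond the genes. Over the gene and 50 kb on either side, islands covered a median of 54.1% of bases in A2a and 35.5% in D1 for the 10 genes, where the median over all protein-coding genes was 3.87% and 1.20%. *Nkx2-1* stood highest, at 88.1% in A2a and 75.8% in D1, followed by *Nkx2-9* at 78.8% and 57.8%. *Nkx2-2* had 68.8% and 53.6%, *Nkx6-1* 65.2% and 40.1%, *Nkx2-3* 55.8% and 40.9%, and *Nkx2-6* 52.5% and 30.9%. *Nkx2-5* and *Nkx2-4* had 42.5% and 41.5% in A2a and changed places in D1, at 26.5% and 27.2%. These 8 genes lay above the 90th percentile of all genes in both lists, which was 28.7% in A2a and 16.5% in D1. *Nkx6-2*, at 19.9% and 9.67%, and *Nkx6-3*, at 15.5% and 9.65%, lay below it and could hardly be told apart in D1. Coverage was higher in A2a than in D1 at every gene, as was the median over all genes. Each list held a number of smaller islands in these windows besides those at the promoters, and some were counted for more than 1 gene, since the windows of *Nkx2-1* and *Nkx2-9*, whose starts lie 76.4 kb apart on chromosome 12, shared 25.5 kb and those of *Nkx2-2* and *Nkx2-4*, 109 kb apart on chromosome 2, shared 7.90 kb.

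**Figure D3:**
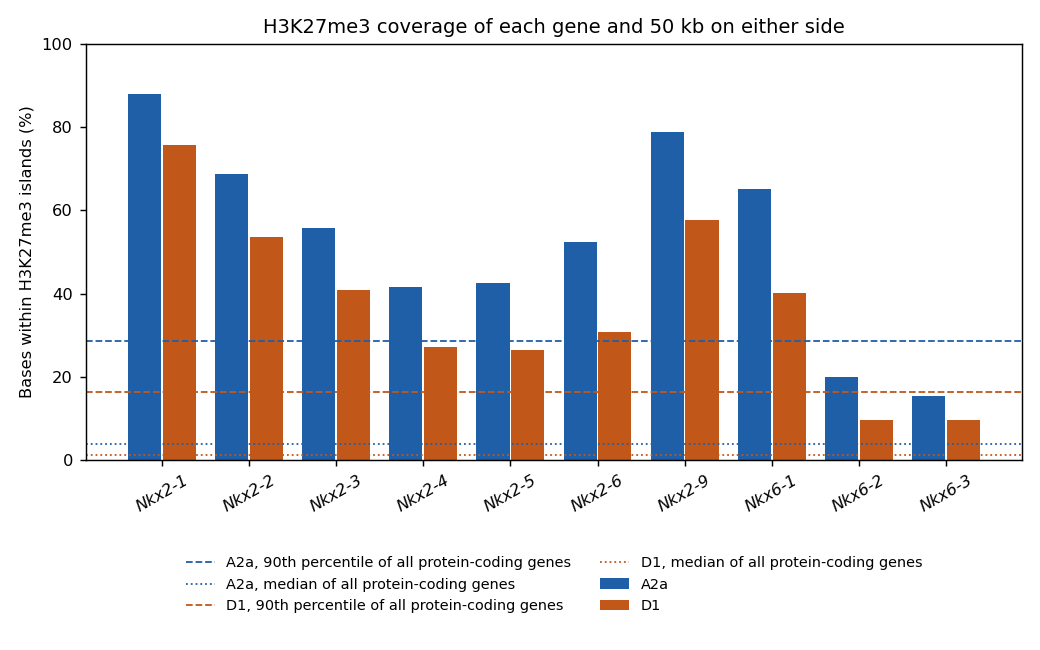
Bars give the percent of bases inside H3K27me3 islands over each gene and 50 kb on either side, blue for A2a and orange for D1, 1 value per pooled list. Dashed lines are the 90th percentile and dotted lines the median over all protein-coding genes, and 8 of the 10 genes rise above the dashed line of their colour while *Nkx6-2* and *Nkx6-3* do not.

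H3K4me3 was rare at the same promoters. In A2a nuclei 3 of the 10 genes (*Nkx2-2*, *Nkx2-9* and *Nkx6-2*) had a promoter peak, against 58.2% of all protein-coding genes, and in D1 nuclei 1 (*Nkx6-2*), against 55.7%. All of these promoters also had an island, so the genes with both marks were 3 in A2a and 1 in D1, where 9.55% and 5.57% of all genes had both. Among all promoters that islands covered over the whole window, the share with a peak was 48.5% in A2a and 39.3% in D1. An island and no peak was the state of 7 genes in A2a and 8 in D1, against 12.1% and 9.73% of all genes. A promoter peak in A2a and none in D1, as at *Nkx2-2* and *Nkx2-9*, was found at 2.6% of genes, and the reverse at 0.164%. For *Nkx2-2* this state depended on the start used, since D1 also had a promoter peak there with the starts of all annotated transcripts.

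The promoter peaks were weak ones of their lists. At *Nkx6-2* the A2a peak (chr7:139582207-139582735) had a fold enrichment of 4.21 and a −log10 q of 8.08, percentile 14.2 of the list, and the D1 peak (chr7:139582169-139582688) had 3.48 and 4.22, percentile 4.52. Both summits lay in the coding sequence, 0.401 and 0.6 kb downstream of the 5′ end. A further A2a peak lay in an intron of *Nkx6-2*, 2.55 kb downstream, with a −log10 q of 3.81. At *Nkx2-9* the A2a promoter peak (chr12:56612017-56612541) had a fold enrichment of 4.30 and a −log10 q of 7.13, again with its summit in the coding sequence. That summit lay 1.14 kb downstream of the 5′ end, just outside the promoter window. The peak was counted because it began 0.743 kb downstream, inside the window. At *Nkx2-2* the A2a promoter peak (chr2:147193611-147194855) had a fold enrichment of 4.73 and a −log10 q of 9.04. The median −log10 q of all peaks was 60.1 in A2a and 48.8 in D1, so that each of these stood low in its list. Under a stricter threshold, a −log10 q of 5, the D1 peak of *Nkx6-2* was lost and no D1 promoter of the 10 had a peak.

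The peak with the highest −log10 q inside any of the genes lay in an intron of *Nkx2-2*, and it was present in both lists. In A2a (chr2:147185396-147186060) its fold enrichment was 6.06 and its −log10 q 40.3, and in D1 (chr2:147185484-147185915) 5.64 and 17.9. Its summit lay 8.51 kb downstream of the 5′ end in A2a and 8.61 kb in D1, close to the inner start of the gene that RefSeq uses and whose sequence is shown above, and inside the H3K27me3 islands of both lists. With the starts of all annotated transcripts as promoters, this peak counted, and the genes with a promoter peak in D1 became *Nkx2-2* and *Nkx6-2*. A2a had peaks in introns of *Nkx2-2* at 9.42 kb and 15.8 kb as well, with −log10 q of 12.3 and 12.6. The noncoding gene *Nkx2-2os* overlaps *Nkx2-2* at 3 of the 4 A2a summits and at the D1 summit, and a mark on chromatin belongs to neither of the overlapping genes in particular.

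Oligodendrocyte markers were read beside these values, because *Nkx2-2* and *Nkx6-2* are also genes of that lineage. Of 6 markers (*Mog*, *Mbp*, *Mobp*, *Sox10*, *Olig1* and *Olig2*), 5 had a promoter peak in A2a and 3 in D1, and 4 had an island in each list. Over all protein-coding genes, 58.2% in A2a and 55.7% in D1 had a promoter peak, and 21.7% and 15.3% had an island. *Mog* had a −log10 q of 12.3 in A2a and no peak in D1, and *Mobp* 5.86 and none. *Mbp* had 171 and 104 at its annotated 5′ end, the only start of that gene that was read. *Sox10* had no promoter peak in either list, and neither did the precursor markers *Pdgfra* and *Cspg4*. The −log10 q values of *Olig1* were 39.4 in A2a and 27.6 in D1, and those of *Olig2* 14.7 and 3.11. Of 4 astrocyte markers 1 had a peak in each list, and of 4 microglial markers 1 in A2a and none in D1. The part of other cells in the peaks at *Nkx2-2*, *Nkx2-9* and *Nkx6-2* was not tested.

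The windows of the 10 genes held 14 A2a peaks and 8 D1 peaks in all, of which 7 were shared. *Nkx2-1*, *Nkx2-3*, *Nkx2-4* and *Nkx6-1* had none within 50 kb in either list. Of the A2a peaks 8 lay in the body of a gene and 10 overlapped an A2a island, and of the D1 peaks 2 and 4. The strongest peak outside a gene body that was nearest to a start of the 10 genes lay 23.9 kb upstream of *Nkx2-9*, in both lists. Its fold enrichment was 12.2 in A2a (chr12:56636639-56637408) and 12.6 in D1 (chr12:56636725-56637429), and its −log10 q 60.4 and 57.3, which placed it at percentiles 50.1 and 54.4 of the lists. It began just upstream of the A2a island of *Nkx2-9*, which ended 22.7 kb upstream of the gene, and neither list had an island at the peak. The 201 bases around its A2a summit (chr12:56637094-56637294, plus strand, GRCm38.p6) are shown because this was the strongest shared peak that lay nearest to a gene of the family and outside H3K27me3, with CG dinucleotides in capitals.
Nkx2-9 distal peak: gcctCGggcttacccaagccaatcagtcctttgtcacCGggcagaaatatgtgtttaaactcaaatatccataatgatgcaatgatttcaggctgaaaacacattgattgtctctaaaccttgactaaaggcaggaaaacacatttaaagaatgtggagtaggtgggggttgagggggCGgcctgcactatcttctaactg
The stretch held 3 CG, and over the whole A2a peak there were 1.95 CG per 100 bp, percentile 22.1 of A2a peaks. Neither CAAGTG nor TTAATTA stood in it on either strand. Around *Nkx2-5* a shared peak lay 41.1 kb upstream in A2a and 40.2 kb in D1, within the noncoding genes *Gm17382* and *Gm20468*, with −log10 q of 29.6 and 12.2.

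At *Nkx6-3* the peaks lay beside the promoter and not in it. A shared peak 3.33 kb upstream in A2a and 3.43 kb in D1, inside the 3′ end of the neighbouring gene *Ank1*, had −log10 q of 17.1 and 6.86. A2a had a peak over the untranslated part of an *Nkx6-3* exon, 4.75 kb downstream, with a fold enrichment of 8.99 and a −log10 q of 28.9, which the D1 list lacked. D1 had a peak inside *Gpat4*, 23.5 kb downstream, with a −log10 q of 10.8, which the A2a list lacked. A promoter of 5 kb on either side took in the upstream peak in both lists and, in A2a, the exon peak as well. *Nkx6-3* then counted among the genes with both marks in both lists.

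The promoters of the 10 genes ranged widely in CG, with 8 above and 2 below the median of all protein-coding genes. In the 3001 bp window *Nkx6-2* held 212 CG, *Nkx6-1* 200, *Nkx2-4* 183, *Nkx2-2* 154, *Nkx2-3* 129, *Nkx2-9* 104, *Nkx2-1* 101, *Nkx2-5* 83, *Nkx2-6* 65 and *Nkx6-3* 52. The median was 116.5, against 72 over all protein-coding genes with a 90th percentile of 147. Of the 4729 genes with at least as many CG as the median of the 10, 95.1% had a promoter peak in A2a and 93.6% in D1, and 19.03% and 15.3% had an island. *Nkx6-1* and *Nkx2-4*, with more CG than 90% of genes, had no peak, while the genes with an A2a peak held 212, 154 and 104. Among promoters that islands covered over the whole window, 48.5% of 2239 in A2a and 39.3% of 1320 in D1 had a peak, which 3 of the 10 genes and 1 of the 9 covered in D1 had. The *Nkx6-2* promoter peak held 13.4 CG per 100 bp in A2a, percentile 99.9 of A2a peaks.

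**Figure D4:**
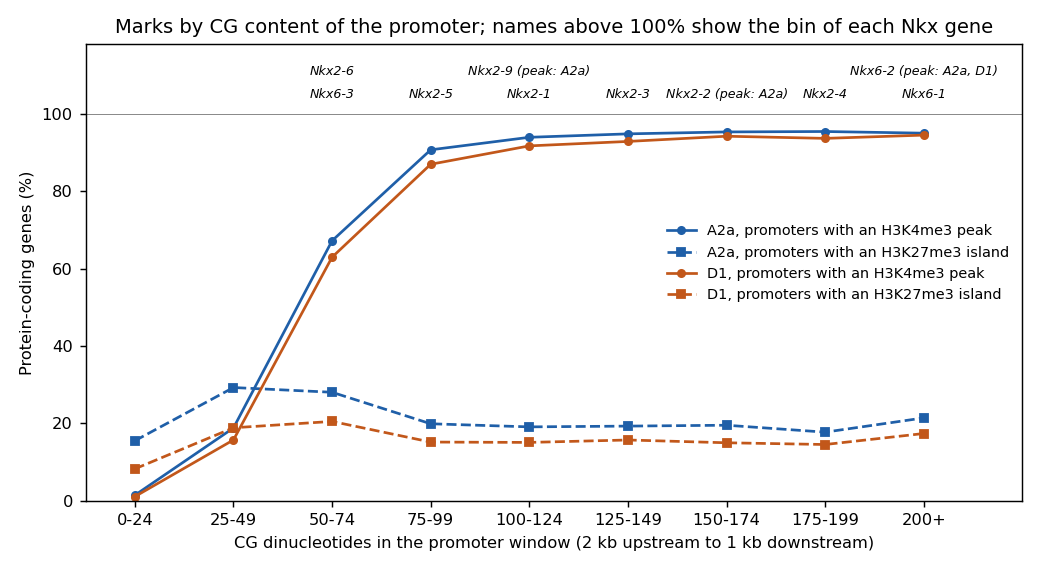
The x axis bins protein-coding genes by the number of CG dinucleotides in the promoter window, and the y axis gives the percent of each bin with an H3K4me3 peak (solid) or an H3K27me3 island (dashed), blue for A2a and orange for D1. Names above the 100% line show the bin of each of the 10 genes and whether it had a peak. Of the 7 names in the bins of 100 CG and more, 4 had no peak, where 91.7% or more of all genes in each of these bins had one in either list.

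Protein-coding neighbours were read where the gene body lay within 50 kb, and 7 are reported, around 5 of the 10. The 7 were *Slc25a28* by *Nkx2-3*, *Xrn2* by *Nkx2-4*, *Bnip1* by *Nkx2-5*, *Inpp5a* and *Cfap46* by *Nkx6-2*, and *Ank1* and *Gpat4* by *Nkx6-3*. Their starts lay farther off, from 55.1 kb (*Gpat4*) to 194 kb (*Inpp5a*) from the start of the Nkx gene. All 7 had a promoter peak in both lists, against 58.2% of all protein-coding genes in A2a and 55.7% in D1. *Xrn2*, an exoribonuclease gene 5.32 kb from *Nkx2-4*, had −log10 q of 233 in A2a and 171 in D1, and *Inpp5a*, whose 3′ end overlaps that of *Nkx6-2*, 102 and 114. An island stood at 1 of the 7 promoters in A2a, that of *Ank1*, and at none in D1, against 21.7% and 15.3% of all genes. The *Xrn2* promoter lay 72.4 kb from the *Nkx2-4* start, and the A2a island of *Nkx2-4* ended 6.44 kb downstream of it. *Nkx2-1*, *Nkx2-2*, *Nkx2-9* and *Nkx6-1* had no protein-coding neighbour within 50 kb, and these were also the 4 genes with the highest H3K27me3 coverage in A2a, while in D1 *Nkx2-3* stood above *Nkx6-1*. A link between neighbours and coverage was not tested, and the windows of *Nkx2-1* and *Nkx2-9* overlap.

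Other genes of the same programmes were read from lists chosen with earlier results of these data known. Their counts stand beside 21.7% of all protein-coding genes with a promoter island in A2a and 15.3% in D1, and 58.2% and 55.7% with a promoter peak. All 3 other NK genes read had islands in both lists, from *Nkx3-2* with 8936 reads over 38.4 kb in A2a and 4592 over 38.6 kb in D1 to *Nkx1-2* with 1060 reads over 11 kb and 464 over 10.2 kb, and none of the 3 had a peak in either list. Of 12 genes of ventral neural tube patterning, all had an island in A2a and 11 in D1, and 6 and 3 had a peak. *Pax6* had the most D1 reads, 5157 over 47.2 kb, beside 10006 over 48.0 kb in A2a. *Foxa2*, the floor plate factor, had 10064 reads over 59.4 kb in A2a and 4342 over 48.4 kb in D1. *Shh*, the ligand of the pathway, was the only one with no D1 promoter island, beside 3302 reads in A2a, and it had a peak in both lists, with −log10 q of 121 and 59.4. *Dbx2* had the fewest D1 reads of the rest, 598 over 8.4 kb beside 2912 over 26.6 kb in A2a.

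All 9 genes read of the Nkx2-1 lineage in the ventral forebrain had an island in both lists, and 6 had a peak in each. *Zeb2* had 11956 reads over 108 kb in A2a and 3374 over 54.0 kb in D1. *Lhx6*, a target of Nkx2-1 that directs interneuron migration, had 5557 reads over 29.0 kb and 2805 over 38.2 kb and no peak. *Gbx1* and *Maf* had the fewest D1 reads, 377 over 6.8 kb and 708 over 11.2 kb. Of 11 genes that transduce the sonic hedgehog signal, 7 had an island in A2a and 6 in D1, and 10 had a peak in each. For both lists of genes the shares over all protein-coding genes were 21.7% and 15.3% for islands and 58.2% and 55.7% for peaks. *Gli2*, an effector of the pathway, had the most D1 reads, 953 over 13 kb beside 2202 over 14.8 kb in A2a, and *Boc*, a co-receptor, followed with 653 over 11.4 kb beside 2726 over 27.4 kb. *Cdon*, also a co-receptor, and *Gli3* were among the 5 with no D1 island, and both had a peak in both lists. *Gli1*, the transcriptional readout of the pathway, is named after its values were seen. It was the only one of the 11 with no peak in either list, and it had 399 and 168 reads over 5.2 and 3.2 kb.

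**Figure D5:**
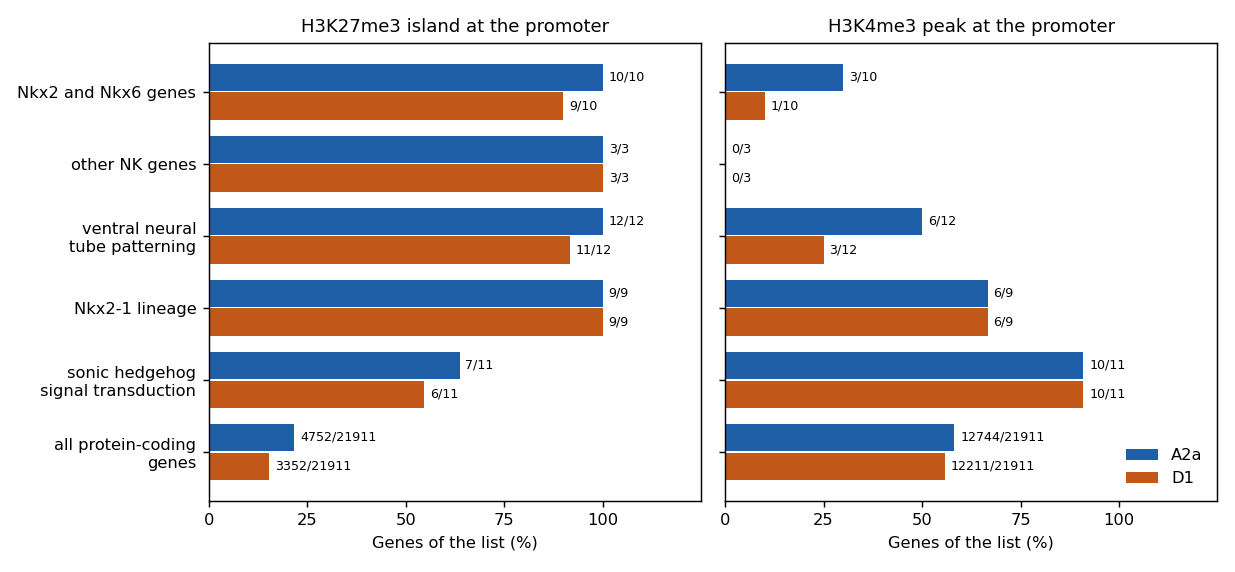
Bars give the percent of genes of each list with an H3K27me3 island (left) or an H3K4me3 peak (right) at the promoter, blue for A2a and orange for D1, with the count beside each bar. The bars of the Nkx2 and Nkx6 genes stand at 10/10 and 9/10 on the left and at 3/10 and 1/10 on the right.

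The genes whose promoter pattern lay nearest to the median of the 10, over 4 values per gene (the highest −log10 q of a peak and the summed reads of islands, each in A2a and D1, on a log10 scale), were *Foxl2*, *Duox2* and *Duoxa2*, and *Hmx2* and *Hmx3*. *Foxl2*, a transcription factor of the ovary and pituitary, had island reads of 4744 in A2a and 1946 in D1, at a distance of 0.0195 SD units from the median. *Duox2*, a thyroid oxidase gene, and its neighbour *Duoxa2* shared their islands with 5174 and 1880 reads at 0.0253. *Hmx2* and *Hmx3*, homeobox genes of the inner ear and hypothalamus, shared theirs with 4402 and 1937 reads at 0.0390. None of the 5 had a promoter peak. Among the 10 genes *Nkx2-5* lay nearest to their median, at 0.105, and *Nkx6-2* (1.43) and *Nkx6-3* (3.71) farthest from it.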

How the data were processed

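CnR libraries of A2a and D1 striatal nuclei were mapped by the authors to mm10 (GRCm38) with Bowtie2 (version 2.1.0), filtered by mapping quality with SAMtools (version 0.1.19), deduplicated and selected by insert size. The authors called H3K4me3 peaks with MACS2 on pooled replicates, and deposited for each peak a fold enrichment (a ratio) and a −log10 q-value. They called H3K27me3 islands with SICER against a control that the paper's text does not name (window 200 bp, gap 600 bp, false discovery rate 0.01), and the deposited value is a raw count of reads per island. The score column as deposited was not used. Library depth is not known from the lists, so read counts were compared after division by the median ratio of shared regions. The other 20 samples were not analysed here.

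Promoters ran 2 kb upstream to 1 kb downstream of the annotated 5′ end, as in the study's methods. All values were computed on the 4 lists as deposited with Python (version 3.11.15), pandas (version 2.3.3), numpy (version 2.4.6) and scipy (version 1.17.1). Each list gives 1 value per group, so no test was run and counts are set beside those of all protein-coding genes. The overlap and ratio procedures were tested on simulated data. The genes and gene lists were chosen with earlier results of these data known. The genes named are the 10 Nkx genes, protein-coding neighbours within 50 kb, at most 4 genes per list (those with the most and fewest D1 island reads, ties in alphabetical order), cell type markers and the 5 genes nearest in pattern. *Gli1* was named in addition, outside that rule and after its values were seen. Alternatives changed the promoter window, the start, the overlap, the thresholds, the list sizes, the merging of islands and the centring of the ratio. A few genes of the neighbours, lists and markers are not reported here and were left out of their counts.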

Additional observations from a re-analysis of the deposited data

How the results depend on the processing

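The 9 results were recomputed under 48 alternatives, of which 35 left the value close to that reported and 13 moved it. The median relative density of A2a to D1 went from above 1 to below 1 on total reads. The islands at the promoters were counted at 10 genes in A2a under every alternative run and at 9 or 10 in D1, where 5 kb on either side of the start added *Nkx6-3*. Promoter peaks, and with them both marks, went from 1 gene in D1 to 2 with 5 kb on either side (*Nkx6-3* added) and to 2 with the start of any transcript (*Nkx2-2* added), and to 0 with a −log10 q of at least 5 (*Nkx6-2* lost). In A2a 5 kb on either side gave 4 in place of 3, which was taken as close. The median coverage of 54.1% in A2a and 35.5% in D1 became 81.6% and 64.5% with flanks of 20 kb, 53.3% and 34.7% with islands of at least 2000 bp, and 59.3% and 41.2% with islands within 5 kb merged. The median relative density of 1.11 became 0.974 on total reads (a ratio of 2.26 against 2.33 over all shared regions), and ranged from 1.06 to 1.15 under the other alternatives. No paired analysis was possible because each list pools its replicates and no result comes from a test. For the same reason no replicate could be left out. What depth limits could not be measured, as the lists hold no library totals.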
